A study of Mus musculus with 12 samples.

Results

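Transcripts of 7 genes that encode the core proteins of the Ras, Raf, MEK and ERK cascade were measured in mouse hearts 9 h after pressure overload was imposed. The genes, picked by name as paralogs at each tier of the cascade, were Hras and Nras (Ras), Araf and Braf (Raf), Map2k1 and Map2k2 (MEK), and Mapk3 (ERK), 7 of the 13552 genes in the deposited table. Other paralogs of these tiers are not analysed here. Whole hearts came from 12 young adult male C57BL/6J mice, 3 in each of 4 groups. The groups were wild type after sham surgery (WT sham), wild type after transverse aortic constriction (WT TAC), and mice with a Bcl-xL S14A knock-in allele after the same procedures (KI sham and KI TAC). The study's results state that homozygous knock-in mice were used in the part of the work that holds the sequencing. These mice carry alanine in place of serine at residue 14 of Bcl-xL in every cell. They were made from targeted embryonic stem cells with the selection cassette removed by a ubiquitous Cre. Wild-type mice were purchased, so WT and KI mice are not described as littermates. TAC narrows the aorta and raises the load on the left ventricle within minutes, and all 4 groups went through anaesthesia and chest surgery.

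In this cascade, growth factor and G protein-coupled receptors switch Ras proteins to the GTP-bound form at the plasma membrane. Active Ras recruits and activates Raf kinases, Raf phosphorylates MEK, and MEK phosphorylates ERK, which then acts on kinases and transcription factors. In cardiac muscle the cascade is known for its activation by stretch and by hypertrophic agonists. It is controlled largely by GTP loading and phosphorylation, which transcript levels do not report, and a difference in RNA is not a difference in kinase activity. The study asked which signalling pathways respond to early pressure overload and how the Bcl-xL mutation bears on them.

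Libraries held 23650191 to 32455166 reads on genes, and 400 to 9644 reads lay behind each value of the 7 genes, so that counting error was at most 5.0% of a value. Values are RPKM, the reads of a gene divided by its exon length in kilobases and by the library's depth. Between genes they depend on the annotated exon length, here 2257 bases for Mapk3 and 13862 for Braf, which limits the order of levels. Between mice they depend on the make-up of each library. Median-ratio size factors of the RPKM ran from 0.8106 (KI TAC mouse 5) to 1.153 (WT TAC mouse 10). Of the cell type markers, all 5 for cardiomyocytes were abundant in every heart (summed levels of 11300 to 21600 RPKM), and no marker of the atrial list (0 of 3) or of the adipocyte list (0 of 4) had a row in the table. The filter behind the deposited rows is not given in the sources used here, so the missing rows say nothing about atrial tissue or fat. Since whole tissue was measured, fewer cells of a type and less RNA per cell cannot be told apart. WT sham mouse 1 and KI sham mouse 2 each had the most Hras, Map2k1, Map2k2 and Mapk3 and the least Nras and Braf of their group. Mitochondrially encoded genes took 6.356% of the reads of WT sham mouse 1 and 9.762% to 12.461% of those of the other 11 hearts (10.559% in KI sham mouse 2), and their part in these results was not tested. The deviations of the 2 mice from their group means correlated at r = 0.434 across 11240 genes (genes are not independent replicates), as did those of WT sham mouse 3 and KI sham mouse 3 (r = 0.440). Changes after TAC are given below with all mice and, where the value moved, without WT sham mouse 1 and KI sham mouse 2.

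Nras was the only gene of the 7 that passed the test after TAC, and it rose in both genotypes. Nras encodes N-Ras, a small GTPase that cycles between GDP and GTP and reaches the plasma membrane through farnesylation and palmitoylation. It lies at chr3:103058285-103067914 on the forward strand of GRCm38, with 8 merged exons and 5331 exonic bases. The bases directly before its start are shown because Nras is the gene that changed. The 98 bases, from RefSeq on GRCm38.p6, run along the forward strand at chr3:103058187-103058284, and capitals mark matches to GGGCGG (2 copies that share 1 base) and CACGTG (1 copy).
Nras upstream interval: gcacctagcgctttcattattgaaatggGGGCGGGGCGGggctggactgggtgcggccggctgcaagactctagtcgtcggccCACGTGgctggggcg
The corresponding interval before Hras, its paralog, is shown for comparison. Hras encodes H-Ras and lies at chr7:141189105-141194005 on the reverse strand, with 4 merged exons and 3733 exonic bases. Its start faces that of Lrrc56, a gene on the other strand, across 151 bases at chr7:141194006-141194156, written here 5′ to 3′ along the strand of Hras. Capitals mark GGGCGG on either strand (3 copies) and CCAAT (1 copy).
Hras upstream interval: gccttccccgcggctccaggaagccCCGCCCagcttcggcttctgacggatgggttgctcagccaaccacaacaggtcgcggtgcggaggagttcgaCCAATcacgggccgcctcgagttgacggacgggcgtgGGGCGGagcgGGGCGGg
Both intervals were rich in G and C, at 67.3% for Nras and 70.9% for Hras. Across both strands, GGGCGG was found in the last 98 bases before the start of 24.5% of 32851 promoters, and CACGTG in 3.13%. In windows of 151 bases, GGGCGG was found in 28.7% and CCAAT in 24.6%. No match to TGACGTCA, TGANTCA or CCGGAAGT was present in either interval. These matches describe the letters only.

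The 7 transcripts covered a wide range of levels, from the MEK genes at the top to Braf at the bottom. Averaged over the 12 hearts, Map2k2 stood at 38.96 ± 7.00 RPKM (SD, n = 12), Map2k1 at 25.37 ± 3.30, Mapk3 at 20.28 ± 3.98, Hras at 14.83 ± 2.45, Araf at 14.08 ± 1.89, Nras at 4.886 ± 1.57 and Braf at 1.636 ± 0.397. Map2k2 was above Map2k1 in 12 of 12 hearts with ranges that did not overlap. The same held for Araf over Nras (2.88-fold) and for Nras over Braf (2.99-fold). Neighbours in the middle of this order did not separate. Map2k1 exceeded Mapk3 in 10 of 12 hearts, Mapk3 exceeded Hras in 10 of 12, and Hras exceeded Araf in only 7 of 12. Of all genes tested, 91.0% had a lower mean level than Map2k2, 48.3% a lower one than Nras and 16.3% a lower one than Braf. Within groups, Map2k1 was among the steadiest transcripts of the heart, since only 11.1% of genes tested had a smaller within-group SD of log2 level (0.14 for Map2k1, against a median of 0.24 over all genes).

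**Figure D1:**
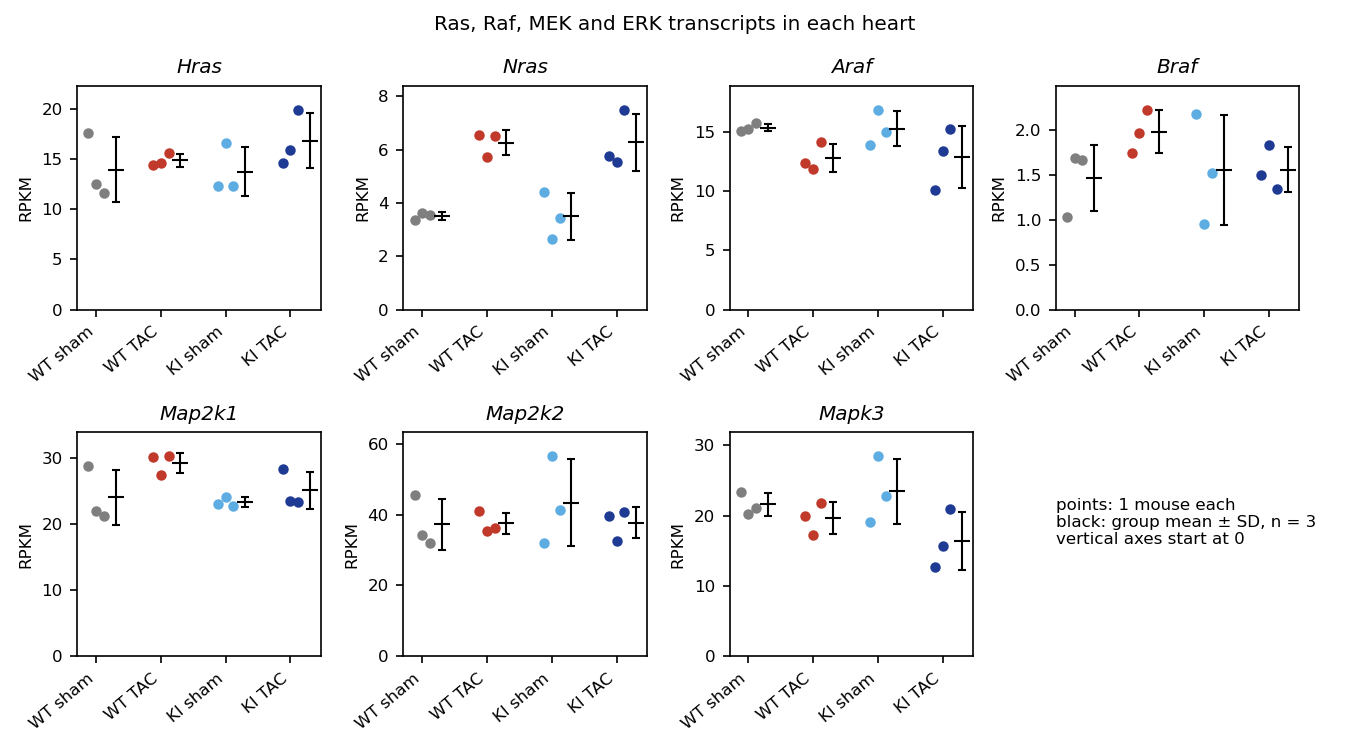
Level in RPKM (vertical axes, starting at 0) of the 7 genes in each of 12 hearts, by group on the horizontal axis, with the group mean ± SD (n = 3) in black. In the Nras panel the 6 TAC hearts, at 5.549 to 7.490 RPKM, sit above the 6 sham hearts, at 2.635 to 4.413.

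In wild-type mice, Nras was 3.351, 3.625 and 3.539 RPKM in WT sham mice 1, 2 and 3, and 6.565, 5.740 and 6.499 RPKM in WT TAC mice 7, 9 and 10. Every TAC heart lay above every sham heart, and the sham hearts were nearly alike. The mean rose from 3.505 ± 0.140 to 6.268 ± 0.458 RPKM (SD, n = 3 each), a ratio of 1.79. On the log2(RPKM + 1) scale, which understates the change of low genes, the increase was 0.69 (SE 0.17, 95% interval 0.33 to 1.05, adjusted p = 0.0185 by limma over all genes). Here 6.96% of all genes tested were called higher and 4.6% lower. The call was kept in 9 of 13 other settings, and it was lost when any 1 of WT sham mice 1, 2 or 3 or WT TAC mouse 7 was left out (adjusted p by limma 0.0132 to 0.0763 over the 13, log2 change 0.63 to 0.84).

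In knock-in mice, Nras was 4.413, 2.635 and 3.450 RPKM in KI sham mice 1, 2 and 3, and 5.770, 5.549 and 7.490 RPKM in KI TAC mice 5, 6 and 7. Again no TAC heart was as low as the highest sham heart. The mean rose from 3.500 ± 0.890 to 6.270 ± 1.06 RPKM (SD, n = 3 each), which is again a ratio of 1.79. The log2 increase was 0.70 (SE 0.17, 95% interval 0.34 to 1.06, limma adjusted p = 0.00941), against a background of 8.57% of genes called higher and 14.7% lower. All 13 other settings kept this call, with adjusted p between 0.002 and 0.0443. Relative to the median of all genes, which was -0.10 in this comparison, the increase was 0.80. The difference between the genotypes' responses was 0.01 (SE 0.24, 95% interval -0.50 to 0.53, limma adjusted p = 0.985).

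Averaged over genotypes, Nras rose by 0.70 on the log2(RPKM + 1) scale (limma adjusted p = 0.000759). This is 1.62-fold in RPKM + 1 (95% interval 1.36 to 1.93), which understates the change in RPKM. With limma-voom on recovered reads, which adds no 1 RPKM, the log2 increase was 0.85. In the averaged comparison 14.1% of genes tested were called higher and 17% lower. All 18 other settings kept the call. Without WT sham mouse 1 and KI sham mouse 2 together, the increase was 0.61 (limma adjusted p = 0.00516). A processed pseudogene, Nras-ps2, is annotated elsewhere in the genome and has no row in the table, and reads that matched both it and Nras could not be told apart.

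Markers of other cell types also differed between some of these groups. Summed levels of the 5 macrophage and leukocyte markers were 28.0 to 32.5 RPKM in WT sham and 42.3 to 72.8 in WT TAC hearts, and 27.8 to 34.4 in KI sham and 23.0 to 34.5 in KI TAC hearts. The 3 neutrophil markers in the table (of 4) summed to 0.395 to 1.27 RPKM over both sham groups and to 3.69 to 20.3 over both TAC groups. Fibroblast markers (5 of 5) summed to 109 to 164 RPKM in WT sham, 131 to 602 in WT TAC, 130 to 215 in KI sham and 88.5 to 162 in KI TAC hearts. In WT mice, 2 further lists separated sham from TAC hearts, smooth muscle and pericyte (5 of 5 markers, 165 to 172 against 194 to 206 RPKM) and red cell (3 of 3, 110 to 124 against 57.6 to 83.5), and in KI mice both overlapped (139 to 198 against 144 to 172, and 100 to 183 against 74.8 to 196). Endothelial markers (5 of 5) overlapped in both genotypes, at 250 to 374 RPKM over all hearts. Their part in the Nras result was not tested.

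Hras, the other Ras gene, did not pass the test in either genotype. It was 17.60, 12.50 and 11.64 RPKM in WT sham mice 1, 2 and 3, and 14.43, 14.55 and 15.56 in WT TAC mice 7, 9 and 10. WT sham mouse 1 was above every WT TAC heart and the other sham mice were below all of them. In KI mice it was 12.35, 16.54 and 12.33 RPKM in sham mice 1, 2 and 3, and 14.62, 15.91 and 19.87 in TAC mice 5, 6 and 7. KI sham mouse 2 again exceeded TAC hearts, in this case 2 of 3. The log2 change averaged over genotypes was 0.19 (95% interval -0.10 to 0.48, limma adjusted p = 0.306). This interval includes no change and also a 1.40-fold increase in RPKM + 1. Without WT sham mouse 1 and KI sham mouse 2 the averaged change was 0.34 (limma adjusted p = 0.0622).

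Among the Raf genes, Araf lay lower after TAC and Braf higher in WT mice, without passing the test. Araf encodes A-Raf, a serine/threonine kinase, on the X chromosome (chrX:20797814-20860519, forward strand). It was 15.09, 15.28 and 15.73 RPKM in WT sham hearts and 12.40, 11.83 and 14.15 RPKM in WT TAC hearts, with no overlap. In KI mice it was 13.90, 16.85 and 15.02 RPKM after sham and 10.09, 13.41 and 15.23 after TAC, and those ranges overlapped. The log2 change was -0.25 in WT (95% interval -0.62 to 0.12) and -0.24 in KI mice (-0.61 to 0.13), and averaged over genotypes it was -0.24 (SE 0.12, limma adjusted p = 0.141). The KI change was -0.08 without KI TAC mouse 5, -0.36 without KI TAC mouse 7 and -0.08 with median-ratio scaling.

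Braf encodes B-Raf, the Raf kinase with the highest basal activity, at chr6:39603237-39725463 on the reverse strand. It was 1.035, 1.690 and 1.659 RPKM in WT sham hearts and 1.742, 1.969 and 2.220 RPKM in WT TAC hearts. The groups did not overlap, although WT sham mice 2 and 3 lay just under the lowest TAC heart. In KI mice Braf was 2.172, 0.9561 and 1.523 RPKM after sham and 1.5, 1.829 and 1.336 after TAC. KI sham hearts held both the highest and the lowest KI value. The log2 change was 0.28 in WT (95% interval -0.10 to 0.67) and 0.03 in KI mice (-0.36 to 0.41), and the test of their difference gave -0.26 (SE 0.25, limma adjusted p = 0.637). Without WT sham mouse 1 and KI sham mouse 2, the change was 0.15 in WT and -0.15 in KI mice, and 0 averaged over genotypes, against 0.15 with all mice. Exons of Braf overlap those of Ndufb2, a respiratory complex I subunit on the other strand, by 146 bases. Ndufb2 had 990 to 2663 reads per heart, against 400 to 808 for Braf. It was 8.573 to 14.31 RPKM in WT sham and 6.795 to 7.711 in WT TAC hearts, with no overlap, and 8.549 to 15.68 in KI sham and 11.49 to 14.68 in KI TAC hearts. Between KI TAC and WT TAC hearts Ndufb2 was called higher (0.75, limma adjusted p = 0.0468). The libraries kept strand, but the strand setting of the counting is not given in the sources used here.

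The MEK genes did not pass the test, and Map2k2 varied more among sham hearts than between sham and TAC hearts. Map2k1 encodes MEK1 (chr9:64185770-64253631, reverse strand) and Map2k2 encodes MEK2 (chr10:81105915-81133975, forward strand), the dual-specificity kinases whose known substrates are the ERKs. Map2k1 was 28.75, 21.95 and 21.24 RPKM in WT sham hearts and 30.03, 27.39 and 30.17 RPKM in WT TAC hearts, where WT sham mouse 1 alone reached the TAC range. In KI mice it was 23.02, 24.12 and 22.62 RPKM after sham and 28.28, 23.49 and 23.34 after TAC. The log2 change of Map2k1 averaged over genotypes was 0.19 (95% interval -0.06 to 0.44, limma adjusted p = 0.238), and 0.27 without WT sham mouse 1 and KI sham mouse 2 (limma adjusted p = 0.114).

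Map2k2 was 45.57, 34.27 and 32.00 RPKM in WT sham hearts and 41.02, 35.46 and 36.31 RPKM in WT TAC hearts. In KI mice it was 32.11, 56.43 and 41.42 RPKM after sham and 39.57, 32.65 and 40.76 after TAC. The highest heart of each genotype was a sham heart, WT sham mouse 1 and KI sham mouse 2. The averaged log2 change was -0.07 (95% interval -0.40 to 0.26) with all mice and 0.11 without those 2 mice.

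Mapk3 encodes ERK1, the terminal kinase (chr7:126759601-126765819, forward strand), and had a lower mean after TAC in both genotypes without passing the test. In WT mice it was 23.39, 20.25 and 21.14 RPKM after sham and 19.92, 17.19 and 21.85 after TAC. In KI mice it was 19.14, 28.41 and 22.76 RPKM after sham and 12.75, 15.64 and 20.87 after TAC, and only KI TAC mouse 7 lay within the sham range. In KI mice the log2 change was -0.50 (SE 0.20, 95% interval -0.93 to -0.06, limma adjusted p = 0.0906), against -0.13 in WT mice (limma adjusted p = 0.702). The difference between genotypes was -0.36 (SE 0.29, limma adjusted p = 0.551). Leaving out KI TAC mouse 7 brought the KI change to -0.68 and past the threshold (limma adjusted p = 0.0282). Among 528 fits of the 6 genes other than Nras under other settings, only that omission gave a call, in the KI comparison and in the average over genotypes (-0.40, limma adjusted p = 0.0361). Without WT sham mouse 1 and KI sham mouse 2 the change was -0.36 in KI and -0.08 in WT mice.

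**Figure D2:**
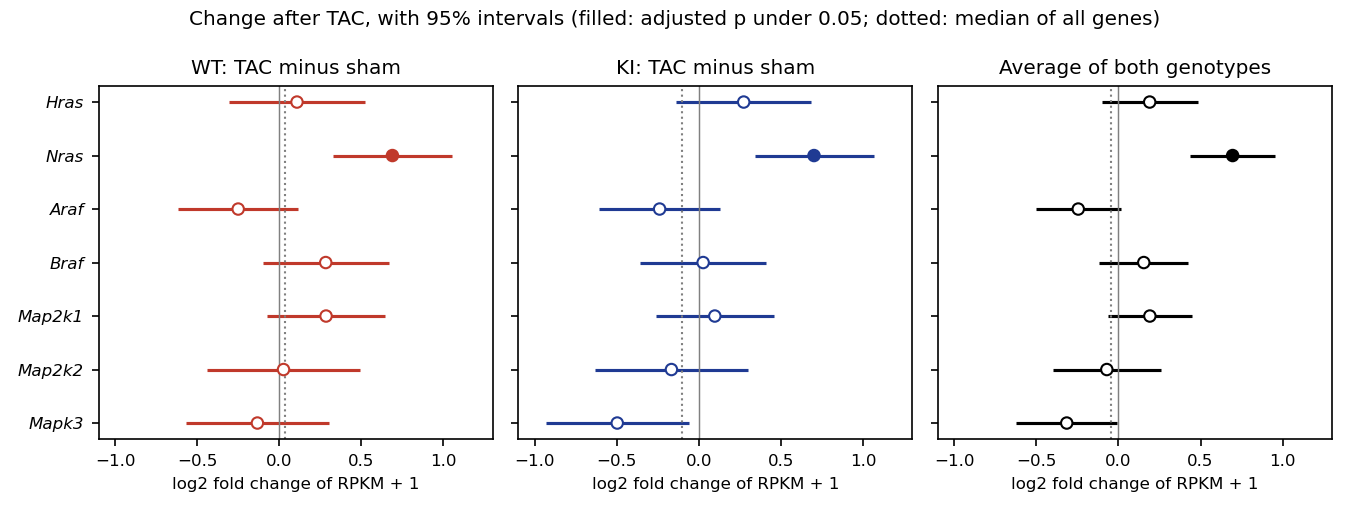
Log2 fold change of RPKM + 1 after TAC (horizontal axes) for each gene, with 95% intervals, in WT mice, in KI mice and averaged over genotypes. Filled points passed an adjusted p of 0.05 and the dotted line marks the median of all genes tested (0.04, -0.10 and -0.04). Only the Nras points are filled, at 0.69, 0.70 and 0.70.

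Counted over the 7 genes, 1 was called higher and none lower in each of these 3 comparisons, read against the shares of all genes given above. Groups did not overlap for 3 of 7 genes in WT mice (Nras, Braf and Araf), where 35.1% of all genes tested did not overlap, and for 1 of 7 in KI mice (Nras), where the share of all genes was 38.3%. The median log2 change of the 7 genes was 0.11 in WT and 0.03 in KI mice, beside 0.04 and -0.10 for all genes tested.

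The balance between paralogs was compared within each heart, since a ratio within a heart does not depend on how hearts were scaled. Nras made up 16.0%, 22.5% and 23.3% of the summed Hras and Nras level in WT sham hearts and 31.3%, 28.3% and 29.5% in WT TAC hearts. In KI mice this share was 26.3%, 13.7% and 21.9% after sham and 28.3%, 25.9% and 27.4% after TAC. The mean share was higher after TAC in both genotypes, and Hras was the more abundant transcript in all 12 hearts. The log2 ratio of Nras to Hras was 0.72 higher after TAC in WT mice without overlap (two-sided exact permutation p = 0.1, the smallest that 3 against 3 allows) and was 0.57 higher in KI mice with overlap (two-sided exact permutation p = 0.2). The KI difference was 0.24 without KI sham mouse 2 and 0.82 without KI sham mouse 1. Averaged over genotypes with labels permuted within genotype, the rise was 0.64 (two-sided exact permutation p = 0.01, adjusted p = 0.03 over 3 ratios). Without WT sham mouse 1 and KI sham mouse 2 it was 0.37 and no longer passed (exact permutation p = 0.02, adjusted p = 0.06 over 3 ratios). Those 2 hearts had the lowest shares of Nras.

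Araf supplied most of the Raf transcript measured here, at 85.7% to 94.6% of the summed Araf and Braf level. The log2 ratio of Araf to Braf was 0.73 lower after TAC in WT mice, at 3.87, 3.18 and 3.25 after sham and 2.83, 2.59 and 2.67 after TAC. Those groups did not overlap (two-sided exact permutation p = 0.1). In KI mice the ratio was 2.68, 4.14 and 3.30 after sham and 2.75, 2.88 and 3.51 after TAC, a difference of -0.33 with overlap (exact permutation p = 0.7). That difference was 0.055 without KI sham mouse 2 and -0.68 without KI sham mouse 1. The averaged difference of -0.53 did not pass (exact permutation p = 0.07, adjusted p = 0.07), and it was -0.23 without WT sham mouse 1 and KI sham mouse 2 (exact permutation p = 0.27). It passed without KI sham mouse 1 (-0.70, exact permutation p = 0.015, adjusted p = 0.015) and without KI TAC mouse 7 (-0.65, exact permutation p = 0.045, adjusted p = 0.045).

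The ratio of Map2k2 to Map2k1 was tightly set in WT mice. Its log2 value was 0.66, 0.64 and 0.59 in WT sham hearts and 0.45, 0.37 and 0.27 in WT TAC hearts, a difference of -0.27 without overlap (two-sided exact permutation p = 0.1). In KI mice it was 0.48, 1.23 and 0.87 after sham and 0.48, 0.48 and 0.80 after TAC, a difference of -0.27 with overlap (exact permutation p = 0.3), which was -0.088 without KI sham mouse 2 and -0.46 without KI sham mouse 1. KI TAC hearts were 0.22 above WT TAC hearts without overlap (exact permutation p = 0.1). KI TAC mouse 7, at 0.80, raised that difference, since KI TAC mice 5 and 6 lay just above the highest WT TAC heart. Averaged over genotypes the ratio was 0.27 lower after TAC (exact permutation p = 0.05, adjusted p = 0.07 over 3 ratios), and without the same 2 sham mice 0.17 lower (exact permutation p = 0.14). It passed without KI sham mouse 1 (-0.36, exact permutation p = 0.01, adjusted p = 0.015) and without KI TAC mouse 7 (-0.32, exact permutation p = 0.04, adjusted p = 0.045).

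**Figure D3:**
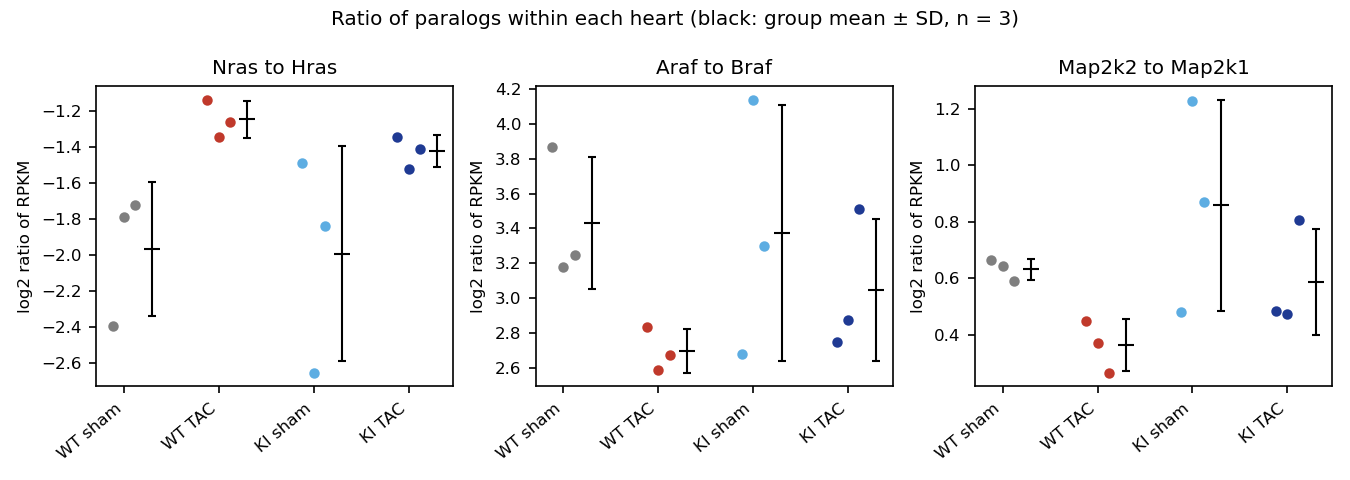
Log2 ratio of RPKM (vertical axes) between paralogs within each of 12 hearts, by group, with the group mean ± SD (n = 3) in black. The Nras to Hras ratio lies between -1.52 and -1.14 in the 6 TAC hearts and between -2.65 and -1.49 in the 6 sham hearts, where WT sham mouse 1 and KI sham mouse 2 are lowest.

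None of the 7 transcripts passed the threshold between KI and WT mice, either after sham or after TAC. Between KI sham and WT sham hearts, log2 differences lay between -0.03 (Map2k1, 95% interval -0.389 to 0.328) and 0.19 (Map2k2, -0.273 to 0.655). In this comparison 0 of 7 genes were called and 0 of 7 had groups that did not overlap. Over all genes these shares were 0.0178% called, which is 2 genes by limma with 37 at an unadjusted p under 0.05, and 3.27% not overlapping. Those 37 of 11240 are fewer than a cut at 0.05 gives without any difference. The sham comparison was thus conservative, and its 0 of 7 does not show equal levels. Between KI TAC and WT TAC hearts, 0 of 7 genes were called and 0 of 7 did not overlap, while over all genes tested 2.92% were called higher, 8.13% lower and 29.5% did not overlap. The differences lay between -0.27 (Mapk3, 95% interval -0.70 to 0.17) and 0.16 (Hras, -0.25 to 0.57). That of Mapk3 was -0.11 without KI TAC mouse 5, -0.44 without KI TAC mouse 7 and -0.08 with median-ratio scaling. That of Hras was 0.25, 0.04 and 0.34 in the same settings. For Nras the difference was -0.01 (95% interval -0.37 to 0.36), which leaves room for differences of about 1.28-fold in RPKM + 1 in either direction. In the test of whether the response to TAC differed by genotype, limma called 0 of 7 genes, and 0% of all genes tested, with 0 of 7 and 1668 of 11240 at an unadjusted p under 0.05. Of the 95% intervals of these differences, that of Mapk3 reached farthest from 0, to -0.98.

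In each of the 4 groups the heart with the most Map2k2 had the least Braf. With group means removed, Pearson's r of their log2 levels was -0.978 and Spearman's rho -0.951 over 12 hearts, and r was -0.946 without KI sham mice 1 and 2, the hearts farthest from the median in Map2k2. This pair was the most extreme of 21 pairs of the 7 genes and was chosen after the values were seen, so no p is given. Araf and Mapk3 varied together (r = 0.899), as did Hras with Mapk3 (r = 0.780) and with Map2k2 (r = 0.752). All points share the libraries in which both genes were measured, and the part of library quality in these relations was not tested.

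**Figure D4:**
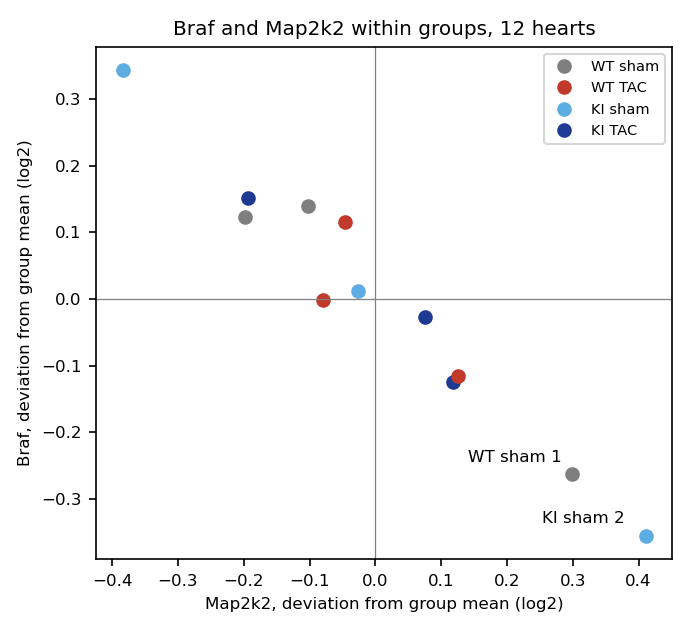
Deviation from the group mean in log2(RPKM + 1) of Map2k2 (horizontal axis) and of Braf (vertical axis) in 12 hearts, coloured by group. Points fall from upper left to lower right, with WT sham mouse 1 and KI sham mouse 2 among the hearts highest in Map2k2 (0.30 and 0.41) and lowest in Braf (-0.26 and -0.35).

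Genes whose levels followed each member most closely over the 12 hearts were different for each member. For Nras they were Necap1 (Pearson's r = 0.978 of log2 levels), an endocytic adaptor, and Adgrd1 (r = 0.966), an adhesion G protein-coupled receptor. Manbal was among the closest to Hras (r = 0.951). Araf was followed by Mat2b (r = 0.968), a regulatory subunit of methionine adenosyltransferase, and Myadml2 (r = 0.945). Braf was followed by Kdm7a (r = 0.977), a histone demethylase, and Npat (r = 0.965), a regulator of histone genes. For Map2k1 the closest were Bambi (r = 0.923), a TGF-β pseudoreceptor, and Cd52 (r = 0.903), a leukocyte surface antigen. For Map2k2 they were Mbd3 (r = 0.920), a subunit of the NuRD complex, and Trip6 (r = 0.900), a LIM domain protein. Mapk3 was followed by Zfyve19 (r = 0.980) and by Pard6a (r = 0.969), a cell polarity protein. These values are among the highest over 11240 genes and describe likeness only.

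The genes around the cascade were followed in 7 lists of 98 genes, 87 of which were tested. In WT mice 9 of the 87 were called higher after TAC and 2 lower, beside 6.96% and 4.6% of all genes. In KI mice 11 of the 87 were called higher and 9 lower, beside 8.57% and 14.7% of all genes. With median-ratio scaling the KI counts were 20 higher and 7 lower, beside 13.9% and 11.3% of all genes, and with quantile normalization 18 and 9, beside 12.1% and 12.9%. The median log2 change over the 87 genes was 0.12 in WT and 0.02 in KI mice, beside 0.04 and -0.10 for all genes tested.

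**Figure D5:**
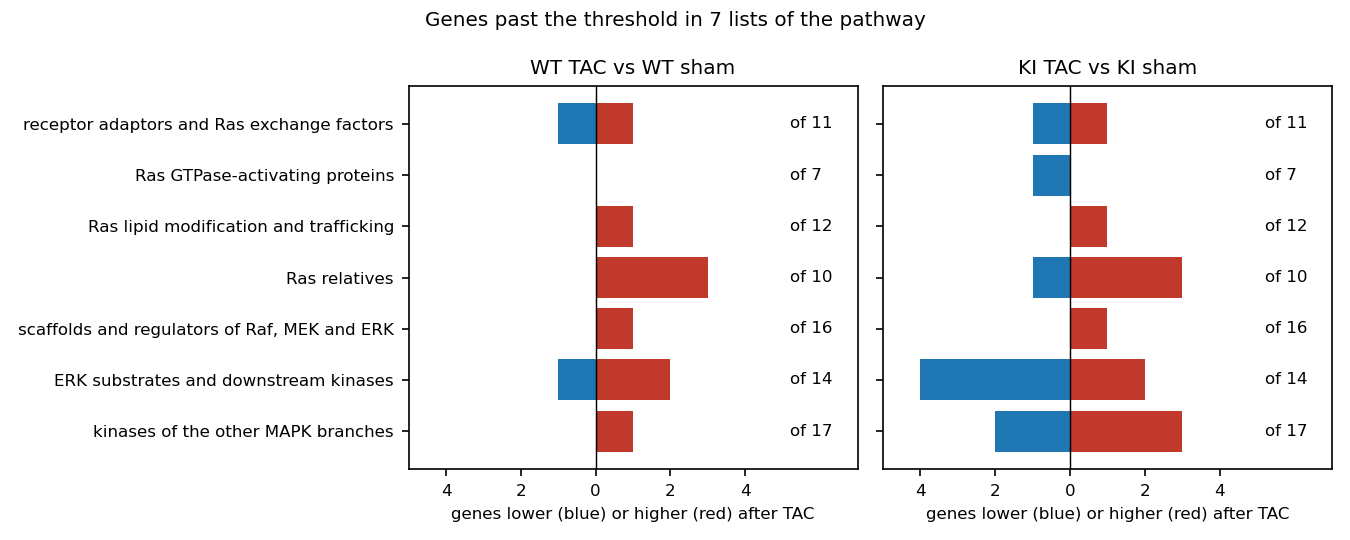
Number of genes called lower (blue, to the left) or higher (red, to the right) after TAC in each of 7 lists of the pathway, in WT and in KI mice, with the number tested in each list. Ras relatives have 3 genes called higher in each genotype, and ERK substrates and downstream kinases have 4 called lower in KI and 1 in WT mice.

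Of 10 Ras relatives tested, 3 were called higher and 0 lower in WT mice (beside 6.96% and 4.6% of all genes), and 3 higher and 1 lower in KI mice (beside 8.57% and 14.7%). Rras2, which encodes the Ras-related GTPase TC21, went from 7.296 ± 1.72 to 37.35 ± 20.6 RPKM in WT and from 8.253 ± 1.98 to 33.43 ± 9.65 RPKM in KI mice (SD, n = 3 each). Its 6 TAC hearts lay at 15.27 to 56.06 RPKM and its 6 sham hearts at 5.976 to 10.21. The log2 change was 2.05 in WT (limma adjusted p = 0.00381) and 1.88 in KI mice (limma adjusted p = 0.00305). Rap1b, a Ras-like GTPase of integrin and junction signalling, rose by 0.86 in WT (limma adjusted p = 0.00957) and by 1.01 in KI mice (limma adjusted p = 0.0019), and no alternative setting removed a call of Rras2 or Rap1b. Its close paralog Rap1a rose by 0.63 in WT mice (limma adjusted p = 0.028), a call kept in 7 of 13 other settings. That call was lost without WT sham mouse 1, 2 or 3 or WT TAC mouse 7 or 10, and without WT sham mouse 1 and KI sham mouse 2 together. Averaged over genotypes Rap1a rose by 0.55, a call kept in 18 of 18. Rit1, another Ras-related GTPase, fell by 0.70 averaged over genotypes (limma adjusted p = 0.0101), a call lost without WT sham mouse 1 and KI sham mouse 2 together.

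Among receptor adaptors and Ras exchange factors, 1 of 11 was called higher and 1 lower in each genotype. Of all genes, 6.96% were higher and 4.6% lower in WT mice, and 8.57% and 14.7% in KI mice. The averaged comparison called 2 each way (14.1% of all genes were higher and 17% lower on average). Between KI TAC and WT TAC hearts 0 were called higher and 2 lower, beside 2.92% and 8.13% of all genes. Gab2, a docking protein that binds the phosphatase SHP2, rose by 0.66 averaged over genotypes (limma adjusted p = 0.000898). Its paralog Gab1, a docking protein that acts in cardiac neuregulin signalling, moved the other way. Gab1 was 29.70 ± 1.80 RPKM in KI sham and 13.91 ± 2.45 in KI TAC hearts, a log2 change of -1.05 (limma adjusted p = 0.00111) that all 13 other settings kept. In WT mice Gab1 was 30.08 ± 1.70 RPKM after sham and 22.67 ± 3.72 after TAC, which did not pass (-0.40, limma adjusted p = 0.152), and the test of the difference between these changes gave -0.65 (limma adjusted p = 0.258). Gab1 was called lower in KI TAC than WT TAC hearts (-0.67, limma adjusted p = 0.0301), a call kept in 6 of 12 other settings and lost without KI TAC mouse 5 or 6 or WT TAC mouse 7 or 10, with median-ratio scaling and with the 2 TAC groups fitted alone. Sos1, a Ras exchange factor, was also called lower there (-0.71, limma adjusted p = 0.0382), kept in 4 of 12 and lost with both other scalings, with the 2 groups alone and on omitting any TAC mouse other than KI TAC mouse 7. Rasgrp2, a calcium-regulated exchange factor for Rap, fell by 0.51 averaged over genotypes (limma adjusted p = 0.00369), and Shc1, an adaptor of receptor tyrosine kinases, rose by 0.51 (limma adjusted p = 0.0206), which was lost without WT sham mouse 2.

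Among Ras GTPase-activating proteins, which switch Ras off, 0 of 7 genes tested were called in WT mice (6.96% of all genes were higher and 4.6% lower). Between KI TAC and WT TAC hearts, Rasa4 was 4.589 ± 1.19 RPKM in WT TAC and 2.213 ± 0.502 in KI TAC hearts (SD, n = 3 each), a log2 difference of -0.79 (limma adjusted p = 0.0319). Rasa1 was 6.554 ± 0.231 RPKM in WT TAC and 3.813 ± 0.705 in KI TAC hearts, a log2 difference of -0.66 (limma adjusted p = 0.0444). The call of Rasa4 was kept in 7 of 12 other settings and that of Rasa1 in 3 of 12. Both were lost with the 2 TAC groups fitted alone, and that of Rasa1 also with both other scalings and with no filter. Omitting 1 of KI TAC mice 5 or 6 or WT TAC mice 7 or 10 ended both calls, and omitting WT TAC mouse 9 ended that of Rasa1 as well. Rasa3 rose by 0.40 averaged over genotypes (limma adjusted p = 0.0134, kept in 18 of 18 other settings). Over all lists, 1 gene was called higher and 8 lower in KI than in WT mice after TAC (1.15% and 9.2% of the 87 tested, beside 2.92% and 8.13% of all genes), 3 and 3 with median-ratio scaling (6.7% and 4.73% of all genes), and 4 and 4 with quantile normalization (4.65% and 5.45%).

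Of the enzymes that lipidate and move Ras, 1 of 12 was called higher in each genotype (6.96% of all genes in WT and 8.57% in KI mice). That gene was Abhd17b, which encodes a thioesterase that removes palmitate from N-Ras. It was 2.762 ± 0.186 RPKM in WT sham, 4.433 ± 0.401 in WT TAC, 3.142 ± 0.620 in KI sham and 4.740 ± 0.295 in KI TAC hearts. Averaged over genotypes it rose by 0.50 (limma adjusted p = 0.00242, kept in 18 of 18 other settings), whereas the call in WT mice alone was kept in 5 of 13. The WT call was lost without any 1 of WT sham mice 1, 2 or 3 or WT TAC mice 7 or 9, and without WT sham mouse 1 and KI sham mouse 2 together. Median-ratio scaling and quantile normalization ended it as well. The KI call was kept in 7 of 13 and lost without KI sham mouse 2 or 3 or KI TAC mouse 5 or 6, with the 2 KI groups fitted alone, and when WT sham mouse 1 and KI sham mouse 2 were both left out.

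Scaffolds and regulators of Raf, MEK and ERK had 1 of 16 called higher and 0 lower in each genotype. Of all genes, 6.96% were higher and 4.6% lower in WT mice, and 8.57% and 14.7% in KI mice. On average 4 of the 16 were called higher (14.1% of all genes). Iqgap1, a scaffold that binds MEK and ERK, rose by 0.69 averaged over genotypes (limma adjusted p = 0.00218, kept in 18 of 18 other settings). Its change was 0.85 in WT (limma adjusted p = 0.0135) and 0.53 in KI mice (limma adjusted p = 0.0648), and the test of the difference gave -0.32 (limma adjusted p = 0.593). Cnksr1, a connector of Ras and Raf, rose by 0.98 averaged over genotypes (limma adjusted p = 0.0075). The others were Ywhaz, a phosphoserine-binding adaptor of Raf (0.49, limma adjusted p = 0.0103), and Shoc2, a scaffold in Raf dephosphorylation (0.41, limma adjusted p = 0.0246). The call of Shoc2 was lost without WT sham mouse 1, KI sham mouse 2 or 3 or KI TAC mouse 5, and without WT sham mouse 1 and KI sham mouse 2 together.

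Among ERK substrates and downstream kinases, 2 of 14 were called higher and 1 lower in WT mice (beside 6.96% and 4.6% of all genes), and 2 higher and 4 lower in KI mice (beside 8.57% and 14.7%). The RSK kinases, direct targets of ERK, moved apart. Rps6ka3 rose by 0.88 averaged over genotypes (limma adjusted p = 0.000801), and Rps6ka2 fell by 1.18 (limma adjusted p = 0.000272). Rps6ka2 was 10.69 ± 1.82 RPKM in WT sham, 4.699 ± 1.86 in WT TAC, 9.727 ± 0.858 in KI sham and 3.494 ± 0.984 in KI TAC hearts. Rps6ka1 was higher in WT TAC than in KI TAC hearts, at 8.067 ± 0.421 against 4.119 ± 0.744 RPKM, a log2 difference of -0.83 (KI minus WT, limma adjusted p = 0.00979), a call lost without KI TAC mouse 6 or WT TAC mouse 7 and with the 2 TAC groups fitted alone. Bcl2l11, which encodes the pro-apoptotic protein Bim, fell by 0.63 averaged over genotypes (limma adjusted p = 0.000462, kept in 18 of 18 other settings). Its change was -0.84 in KI (limma adjusted p = 0.00118) and -0.41 in WT mice (limma adjusted p = 0.0763), and the test of the difference gave -0.43 (limma adjusted p = 0.337). Elk1, an ERK-activated transcription factor, fell by 0.30 averaged over genotypes (limma adjusted p = 0.0311). The call of Elk1 was kept in 11 of 18 other settings and lost without WT sham mouse 2 or 3, WT TAC mouse 9, KI sham mouse 1 or 3 or KI TAC mouse 5 or 6.

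Bcl2l1, the gene that encodes Bcl-xL and carries the knock-in allele, was 12.22 ± 4.52 RPKM in WT sham, 10.43 ± 5.88 in WT TAC, 13.91 ± 6.46 in KI sham and 32.43 ± 6.89 in KI TAC hearts (SD, n = 3 each). It rose by 1.26 in KI mice (limma adjusted p = 0.0354) and was 1.64 above WT TAC in KI TAC hearts (limma adjusted p = 0.0231), calls that were kept in 9 of 13 and 8 of 12 other settings. KI TAC mouse 5 or 6, left out, ended both, KI sham mouse 1 or 3 ended the first, and WT TAC mouse 7 or 10 the second. The test of the difference between responses gave 1.52 (limma adjusted p = 0.248). A gene level does not report which base codon 14 carries.

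Of 17 kinases of the other MAPK branches, 1 was called higher and 0 lower in WT mice (6.96% and 4.6% of all genes), and 3 higher and 2 lower in KI mice (8.57% and 14.7%). Mapk6, which encodes the atypical kinase ERK3, rose by 0.67 averaged over genotypes (limma adjusted p = 0.00225). Map2k6, an activator of p38, was 1.176 ± 0.146 RPKM in KI sham and 0.2585 ± 0.112 in KI TAC hearts, and it met the filter of 1 RPKM through sham hearts alone, so its call, 1 of the 2 lower, is not read as a result. Map2k3, the other main activator of p38, rose by 0.83 in KI mice (limma adjusted p = 0.0188), from 29.75 ± 5.02 to 54.84 ± 16.3 RPKM, beside a change of 0.19 in WT mice (limma adjusted p = 0.615). Mapk14, which encodes p38α, changed by -0.18 in WT mice (limma adjusted p = 0.601) and fell by 0.75 in KI mice (limma adjusted p = 0.0187), a call lost with median-ratio scaling and when KI TAC mouse 5 or 6 or KI sham mouse 3 was omitted. Map2k3 lost its call when KI TAC mouse 5, or 1 of KI sham mice 1 and 3, was omitted. The tests of the difference between genotypes did not pass (Map2k3, limma adjusted p = 0.368, and Mapk14, limma adjusted p = 0.372). Map3k20, a stress-activated kinase, rose by 0.58 averaged over genotypes (limma adjusted p = 0.0133), which was lost without WT sham mouse 1 and KI sham mouse 2 together.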

How the data were processed

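Poly(A)-selected RNA from 12 hearts was sequenced as single reads of 75 bases. Per the labels and methods, the authors made strand-specific libraries, and the submitters' processing notes name Trimmomatic 0.39, HISAT2 2.2.1, HTSeq 0.6.1 and GRCm38. The authors deposited 1 table of 13552 genes whose values are RPKM: low values were whole multiples of 1 read (within 0.02 reads, up to 50 reads) for 97.2% to 97.9% of cases per mouse with exon lengths of GENCODE M21, found for 13546 genes. A count test had been an option, but RPKM are not counts. Genes that reached 1 RPKM in 3 or more hearts (11240) were fitted on the log2(RPKM + 1) scale with limma 3.58.1 (R 4.3.3; moderated with a mean-variance trend), using 4 groups and all 12 mice. P-values were adjusted by Benjamini and Hochberg over all genes tested, with a threshold of 0.05. Alternatives were a pseudocount of 0.1, no filter, median-ratio scaling, quantile normalization, limma-voom on recovered reads, the 2 groups alone, and leaving out each mouse. Omitting WT sham mouse 1 and KI sham mouse 2 together was added after the data were seen. Paralog ratios were compared by exact permutation over mice. The 7 genes, the lists and the tests were chosen with earlier results of these data known, so no list is independent evidence. Named beyond the 7 genes are at most 4 genes per list and comparison with the largest changes past the threshold, and up to 2 of the genes most like each member. Samples of a group were separate mice, and p-values measure the spread between them. Groups came from the genotype and treatment labels, and mice keep the numbers of their titles. On simulated reads for WT TAC against WT sham (11236 genes, 200 changed), 96% of 2-fold and 100% of 4-fold changes were recovered, and 2.97% of calls were on unchanged genes. The simulation gave every gene the same spread, the median of the WT sham mice, and let genes vary independently. Changed genes had more than 50 reads on average. These shares therefore check the method and do not measure power for the 7 genes in these hearts. Some genes of the cascade, its lists and its surroundings are not reported here.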

Additional observations from a re-analysis of the deposited data

How the results depend on the processing

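With 3 mice per group, single omissions decided some counts. The number of the 7 genes past the threshold ranged from 0 to 1 in WT mice, 1 to 2 in KI mice and 1 to 2 averaged over genotypes when 1 mouse was left out, and all other settings kept 1 in each. The second gene was Mapk3, and KI TAC mouse 7 was the mouse left out. Small differences that were never called changed sign. With median-ratio scaling the log2 change of Map2k2 in WT mice was -0.016, differences of KI TAC from WT TAC were 0.16 (Nras), 0.18 (Araf) and 0.19 (Map2k2), and interactions were 0.016 (Map2k1) and 0.013 (Map2k2). Quantile normalization gave 0.11, 0.090 and 0.033 for those KI TAC differences. Median-ratio scaling moved the median of all genes from -0.10 to 0.03 in KI TAC against KI sham and from -0.12 to 0.03 in KI TAC against WT TAC. It gave 20 list genes higher and 7 lower in KI mice after TAC (13.9% and 11.3% of all genes), and quantile normalization 18 and 9 (12.1% and 12.9%). Between KI TAC and WT TAC hearts median-ratio scaling gave 3 higher and 3 lower (6.7% and 4.73%), and quantile normalization 4 and 4 (4.65% and 5.45%).

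Without WT sham mouse 1 and KI sham mouse 2, Braf changed by -0.15 and Map2k2 by 0.039 in KI mice, Map2k2 by 0.11 on average, KI sham differed from WT sham by 0.03 (Hras), 0.099 (Nras) and 0.077 (Map2k1), and the Nras interaction was -0.11. The averaged ratio of Nras to Hras was then 0.37 and lost its call. List genes called lower in WT mice then numbered 1, against 2 with all mice, and those called higher in KI mice 6, against 11. Shares of all genes under this omission are not given, so these counts are not read as a result about the lists.

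Leaving out 1 mouse gave the following ranges of log2 change for genes and ratios whose sign changed. In WT mice after TAC, Hras ranged from -0.001 to 0.28 and Map2k2 from -0.073 to 0.18. In KI mice after TAC, Braf ranged from -0.15 to 0.20 and Map2k2 from -0.36 to 0.039. Averaged, Map2k2 ranged from -0.17 to 0.032. Between KI TAC and WT TAC, Nras ranged from -0.12 to 0.063, Araf from -0.12 to 0.15 and Map2k2 from -0.060 to 0.096. Between KI sham and WT sham, Hras ranged from -0.14 to 0.16, Nras from -0.16 to 0.12, Araf from -0.083 to 0.047, Braf from -0.14 to 0.21, Map2k1 from -0.11 to 0.10, Map2k2 from -0.014 to 0.38 and Mapk3 from -0.044 to 0.23. For the interaction, Hras ranged from -0.004 to 0.30, Nras from -0.13 to 0.16, Araf from -0.11 to 0.17 and Map2k2 from -0.38 to 0.013. The ratio of Araf to Braf in KI mice after TAC ranged from -0.68 to 0.055, and between KI sham and WT sham from -0.44 to 0.29. The ratio of Nras to Hras ranged from -0.28 to 0.30 between KI sham and WT sham and from -0.48 to 0.10 for the interaction, and that of Map2k2 to Map2k1 from -0.19 to 0.18 for the interaction. With no change of sign, the averaged ratio of Araf to Braf ranged from -0.70 to -0.34 and that of Map2k2 to Map2k1 from -0.36 to -0.18. The causes were not tested.

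Sham mice of both genotypes share the numbers 1 to 3. The deviations of same-numbered mice correlated at -0.225, -0.302 and 0.440. Such values cannot show whether mice of 1 number were handled together, so pairing is left undecided. With the number as a replicate block, 0 of 7 genes passed between KI sham and WT sham, as without it. TAC mice share too few numbers for a paired analysis.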
